A study of Homo sapiens with 6 samples.

Results

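Complement is a set of plasma proteins that mark microbes and damaged cells for removal, and most of its soluble members are made by hepatocytes. Each of its 3 starting routes, the classical, lectin and alternative pathways, leads to cleavage of C3, and cleavage of C5 then starts assembly of the membrane attack complex from the terminal components. Regulators in plasma and on the cell surface hold this cascade in check on the body's own cells. The complement genes were examined here in Hep3B, an established human hepatocellular carcinoma line. They are 33 genes picked by symbol for their place in this system, out of 23228 genes in the tables, and all 33 had a row. The study asked how gene expression differs when PELP1, a scaffold protein of chromatin and ribosome assembly complexes, is depleted. RNA was sequenced from 3 control libraries, of Hep3B cells carrying a non-targeting shRNA, and from 3 libraries labelled PELP1-KD, of cells carrying an shRNA to PELP1. shRNAs are hairpins that cells process into small RNAs to silence a matching mRNA. Both groups were transduced with lentivirus, grown in RPMI medium, selected with puromycin and used as pooled stable clones, so each group stands for a single cell population. The titles name the first PELP1 shRNA, whereas the protocol in the labels names both that the study used. The labels also conflict on the library kit, which either selected mRNA or depleted ribosomal RNA. Nothing in the labels says that the 3 libraries of a group came from separate cultures, so p-values measure only the spread between these libraries.

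Reads on genes numbered 26758363 to 34456542 per library. The test was the quasi-likelihood test of edgeR, fitted to all 14537 genes that passed its filter on low counts. A gene was called at an adjusted p below 0.05, which held for 53.6% of them. Normalized reads are reads scaled to a common library size. PELP1 itself had 4893, 4914 and 5102 normalized reads in control, against 4421, 4825 and 4840 in the libraries labelled PELP1-KD. PELP1 RNA thus stood at 94.5% of its control level, and the log2 fold change was −0.08 (standard error, SE, 0.04, adjusted p = 0.101 from edgeR), whereas a fit with the replicate number as a block made the call (adjusted p = 0.0106). The paper reports lower PELP1 protein by Western blot in Hep3B cells carrying its PELP1 shRNAs, which these RNA libraries do not measure. Since the target RNA lay this close to control, every direction below is that of the labels. All 8 hepatocyte markers were present. Of these 5 fell, with albumin (ALB) at 65.4% of control, and 3 rose, with the fetal liver protein AFP at 154%, and their summed level was 23911 to 24521 CPM (reads per 1e6 reads) in control and 21523 to 22456 in the libraries labelled PELP1-KD. Of 9 macrophage markers, CD163, C1QA, C1QB and C1QC were at 0 reads in every library, and the list summed to 46.3 to 52.0 CPM in control and 62.9 to 66.8 in the libraries labelled PELP1-KD. Of its 2 tested genes CD68 rose, by 0.48 on the log2 scale, and CD14 fell by 0.98. Of 5 endothelial markers, CDH5, TEK and STAB2 were at 0, and the list summed to 1.99 to 2.31 CPM in control and 1.94 to 2.18 in the libraries labelled PELP1-KD. The 6 fibroblast and stellate markers, of which THY1 was at 0, summed to 19.4 to 22.4 and 23.6 to 26.8 CPM. Of the 3 tested, LUM rose to 189% of control, whereas PDGFRA fell to 51.4% and PDGFRB to 22.7%. The 4 biliary markers, which Hep3B also expresses, summed to 673 to 699 CPM in control and 1050 to 1096 in the libraries labelled PELP1-KD, with KRT19 and EPCAM higher and SOX9 not called. The part of these shifts in the results below was not tested.

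The libraries labelled PELP1-KD held less complement RNA, with falls of at least 2-fold for, among others, the regulators clusterin (CLU) and C4BPA and the terminal components C6 and C8G. CD55, which shields cell membranes from complement, rose to 193% of control. All complement genes together took 0.601% to 0.614% of the reads of a control library and 0.487% to 0.502% of a library labelled PELP1-KD. In bulk RNA of this kind, fewer cells expressing a gene and less of its RNA per cell cannot be told apart. Of the 33 genes, 29 passed the filter and 17 of these fell, against 26.8% of all genes tested. Only 3 rose, C1RL, CD46 and CD55, against 26.8% of all genes tested, and 9 were not called. The count of 3 was 1 without replicate 1 of control and 5 under the replicate block. The median log2 fold change was −0.37, beside 0.004 over all genes tested. At least 2-fold falls were called for 8 of the 29, and for 4.79% of all genes tested. By edgeR, 0 complement genes rose 2-fold, with adjusted p below 0.05 or with unadjusted p below 0.05, against 2.85% of all genes tested. This count of 0 was not stable. In the edgeR fit without replicate 1 of control, CD55 passed 2-fold (log2 fold change 1.007, adjusted p = 1.65e-09). The groups did not overlap for 20 of the 29, beside 58.8% of all genes. C4A and C4B carry the same value in every library, as described below. Counted once, they leave 16 lower genes of 28 tested, with a median of −0.30. CFHR2 passed the filter through its control libraries alone, so it could only enter as a lower gene. With at least 10 reads demanded in every library, CFHR2 and C7 dropped out, and 16 of 27 were lower and 3 higher.

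Levels were compared between genes as RPKM, reads scaled by exon length and by library size. Vitronectin (VTN), a plasma and matrix protein that also blocks the membrane attack complex, had the highest level, at 1133 ± 19.4 RPKM (SD, n = 3) in control. Next came C3 (316 ± 7.60), CLU (267 ± 6.05), the C1 inhibitor SERPING1 (150 ± 3.80), factor I (CFI, 110 ± 1.96) and C5 (79.2 ± 1.71 RPKM, SD, n = 3 each). In control, C1S (46.7 ± 0.24 RPKM) and CD46 (46.4 ± 1.37) lay within their spread of each other, as did C4BPA (19.98 ± 1.33) and CD59 (19.9 ± 0.08). VTN, C3 and CLU together made up 71.0% to 72.0% of the complement reads of a control library and 68.2% to 70.4% in the libraries labelled PELP1-KD. In the latter, CLU had 112 ± 5.76 RPKM and CFI 109 ± 0.71 (SD, n = 3 each), so the clear gap between this pair in control was gone. Over all libraries, 14 genes had a mean above 10 RPKM, and 8 of these fell and 2 rose, with a median log2 fold change of −0.13. The 7 genes between 1 and 10 RPKM held 4 that fell and 1 that rose, with a median of −0.41. For both classes, the share over all genes tested was 26.8% in each direction. Of the 12 genes under 1 RPKM only 8 passed the filter. The 5 that fell, beside 26.8% of all genes tested, were C6, CFHR3, CFHR2, which entered through control alone, and C4A and C4B, which are a single measurement. The levels of C2, CFB, C4A and C4B in this class are uncertain, as described below.

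**Figure D1:**
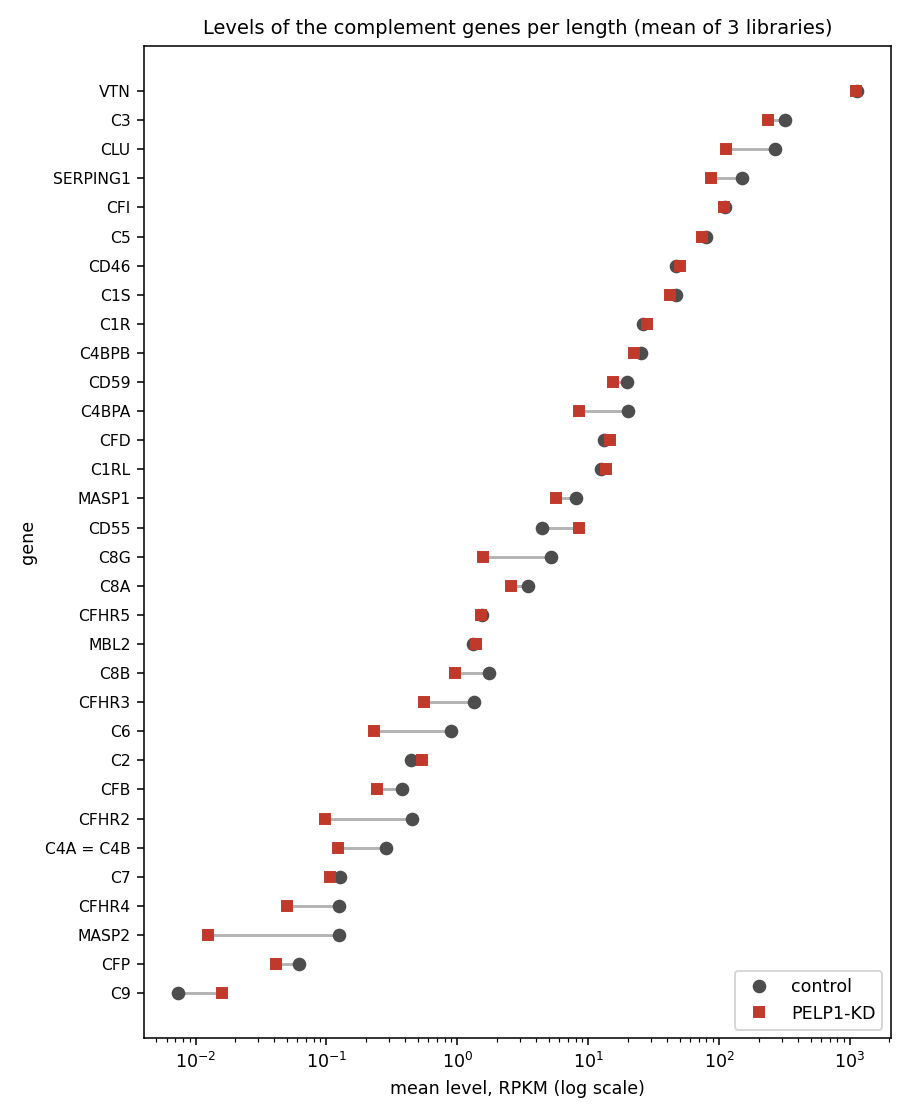
Mean level of each complement gene in the 3 control libraries (grey circles) and the 3 libraries labelled PELP1-KD (red squares), in RPKM on a log scale, sorted by level. VTN lies at the top with 1133 and 1102 RPKM and C9 at the bottom, and grey lines join the means of a gene. C4A and C4B have identical values and are drawn once.

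The classical pathway starts with the C1 complex, in which the proteases C1R and C1S are activated when C1q binds antibody. C1S fell slightly, and C1R was not called. C1S had 4101, 4119 and 4143 normalized reads in control, against 3705, 3598 and 3787 in the libraries labelled PELP1-KD, without overlap. Its log2 fold change was −0.16 (SE 0.04, adjusted p = 0.00171 from edgeR). C1R, its neighbour on chromosome 12, had 1864 ± 96.1 and 2001 ± 149 normalized reads (SD, n = 3 each), with overlap, and a log2 fold change of 0.10 that was not called (adjusted p = 0.115). It was called with the replicate number as a block (adjusted p = 0.0112). C1RL, a protease related to C1R and next to it, rose by 0.13 (SE 0.05, adjusted p = 0.0269), a call that DESeq2 did not make (adjusted p = 0.0538). The log2 ratio of C1R to C1S was −1.19 to −1.07 in control and −0.97 to −0.80 in the libraries labelled PELP1-KD, a difference of 0.26 between the means. A two-sided exact permutation test gave p = 0.1, the smallest p that 3 against 3 allow, and 0.15 after adjustment over the 9 gene pairs compared in this way. The C1q chains C1QA, C1QB and C1QC, the recognition part of C1, are made by macrophages and had 0 reads.

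In the lectin pathway, MBL2 binds sugars on microbes and the proteases MASP1 and MASP2 act in its complex. MASP1, on chromosome 3 from 186933873 to 187009810, had 2458, 2616 and 2487 normalized reads in control, against 1729, 1729 and 1900 in the libraries labelled PELP1-KD. All its control libraries lay above the others, and it fell to 70.9% of control, with a log2 fold change of −0.50 (SE 0.05, adjusted p = 3.15e-08). Its gene also encodes MAP-type splice forms without a protease domain, which a count per gene does not separate. MBL2 had 160, 150 and 136 normalized reads in control, against 161, 178 and 130 in the libraries labelled PELP1-KD, which overlap, and its log2 fold change of 0.06 was not called (SE 0.13, adjusted p = 0.685). MASP2, which cleaves C4 and C2, was near the limit of detection with 20, 6 and 7 reads in control, against 3, 0 and 0 in the libraries labelled PELP1-KD, and it did not pass the filter.

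C3 is the component on which all routes meet. C3, on chromosome 19 from 6677846 to 6720662, had 49942, 50041 and 52099 normalized reads in control, against 36715, 36975 and 39303 in the libraries labelled PELP1-KD. The groups did not overlap, and C3 fell to 74.3% of control, with a log2 fold change of −0.43 (SE 0.03, adjusted p = 7.23e-10). C5, the parent of the C5a anaphylatoxin and of C5b, which seeds the membrane attack complex, fell far less. It had 13721, 13822 and 13272 normalized reads in control, against 13235, 12835 and 12024 in the libraries labelled PELP1-KD, so the lowest control library lay just above the highest of the other group. Its log2 fold change was −0.10 (SE 0.04, adjusted p = 0.0264), and 4 of the 6 fits without a library did not make the call (largest adjusted p 0.115).

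C4 is cleaved by C1s and MASP2 and joins C2 in the classical C3 convertase, and it is encoded by the near-identical genes C4A and C4B. In the annotation used by the authors, each symbol covers both gene copies on chromosome 6, between 31949834 and 32003194, and all 10852 exon bases of C4A are also listed for C4B. Another symbol, LOC100293534, shares all these bases too. Reads were therefore divided among the 3 symbols, whose deposited values were equal in all 6 libraries, so they are a single measurement. The sum of C4A and C4B, which leaves out the share of LOC100293534, was 158, 181 and 246.5 normalized reads in control, against 73.7, 82.1 and 95.9 in the libraries labelled PELP1-KD, without overlap. Each symbol alone had a log2 fold change of −1.21 (SE 0.20, adjusted p = 2.99e-05). Fitted as their sum, C4 had the value −1.21 too, with an adjusted p of 2.43e-06.

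C4A, C4B, C2 and factor B (CFB) lie close together in the MHC class III region of chromosome 6. Their exons are also annotated on the alternative haplotypes of hg19, 6 sequences for C4 and 7 for C2 and CFB. Reads with a mapping quality below 2 were not counted and reads with several matches were shared out, so the levels of these 4 genes, all under 1 RPKM, cannot be set against those of other genes. C2, the protease part of the classical C3 convertase, had 31.2, 47.9 and 45.8 normalized reads in control, against 33.8, 49.0 and 68.9 in the libraries labelled PELP1-KD. It was not called (log2 fold change 0.29, SE 0.25, adjusted p = 0.348), and without replicate 3 of PELP1-KD the value was −0.016. CFB, the protease part of the alternative pathway convertase, had 34.8, 26.8 and 31.5 normalized reads in control, against 11.3, 17.5 and 31.0 in the libraries labelled PELP1-KD. It was not called either (−0.63, SE 0.31, adjusted p = 0.0942). Replicate 3 of PELP1-KD decided this, since without that library CFB had −1.12 with an adjusted p of 0.00614.

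The other alternative pathway genes were factor D (CFD), the protease that cleaves factor B, and properdin (CFP), which stabilizes the convertase. CFD had 485, 460 and 502 normalized reads in control, against 505, 527 and 574 in the libraries labelled PELP1-KD. The groups did not overlap, but the log2 fold change of 0.15 was not called (SE 0.07, adjusted p = 0.0814). It was called with the replicate number as a block (adjusted p = 0.044). CFP, known from leukocytes, had at most 6 reads in a library and was not tested.

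The terminal components form the pore of the membrane attack complex, in which C5b, C6, C7, C8 and copies of C9 come together. Here 4 of the 5 tested genes fell, beside 26.8% lower among all genes tested. C6, on chromosome 5 from 41142336 to 41261540, had 109, 108 and 105 normalized reads in control, against 30.7, 29.2 and 24.0 in the libraries labelled PELP1-KD. It thus fell to 26.0% of control, with a log2 fold change of −1.94 (SE 0.18, adjusted p = 1.54e-08), with a wide gap between the groups. C7 lies near C6 on the same chromosome, from 40909599 to 40983042. It had 11.9, 24.0 and 12.4 normalized reads in control, against 15.4, 7.0 and 18.0 in the libraries labelled PELP1-KD. These overlap and were not called (−0.23, SE 0.39, adjusted p = 0.649). The log2 ratio of C7 to C6 lay between −3.09 and −2.13 in control and between −1.92 and −0.40 in the libraries labelled PELP1-KD (exact permutation p = 0.1, adjusted over the 9 pairs 0.15). C9, the main pore subunit, had at most 2 reads in any library and was not tested, so no ratio of C6 to C9 is read here.

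C8 is built from 3 chains, α, β and γ, encoded by C8A, C8B and C8G. All 3 fell, by different amounts, beside 26.8% lower among all genes tested. C8A, on chromosome 1 from 57320443 to 57383894, had 269, 246 and 263 normalized reads in control, against 212, 170 and 202 in the libraries labelled PELP1-KD (a log2 change −0.41, SE 0.10, adjusted p = 0.00161). Its neighbour C8B had 114, 120 and 104 and then 57.3, 68.8 and 57.9, again without overlap, a log2 fold change of −0.88 (SE 0.15, adjusted p = 5.25e-05). C8G, a lipocalin that is encoded apart from the others on chromosome 9 from 139839698 to 139841426, had 146, 134 and 147 normalized reads in control, against 26.6, 56.0 and 46.9 in the libraries labelled PELP1-KD. It fell to 30.4% of control, with a log2 fold change of −1.73 (SE 0.185, adjusted p = 1.62e-07). In RPKM, C8G stood above C8A in control (5.16 ± 0.26 and 3.45 ± 0.15, SD, n = 3 each) and below it in the libraries labelled PELP1-KD (1.57 ± 0.55 and 2.59 ± 0.29, SD, n = 3 each). The log2 ratio of C8A to C8B overlapped between the groups, with a difference of 0.45 between the means (exact permutation p = 0.2).

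**Figure D2:**
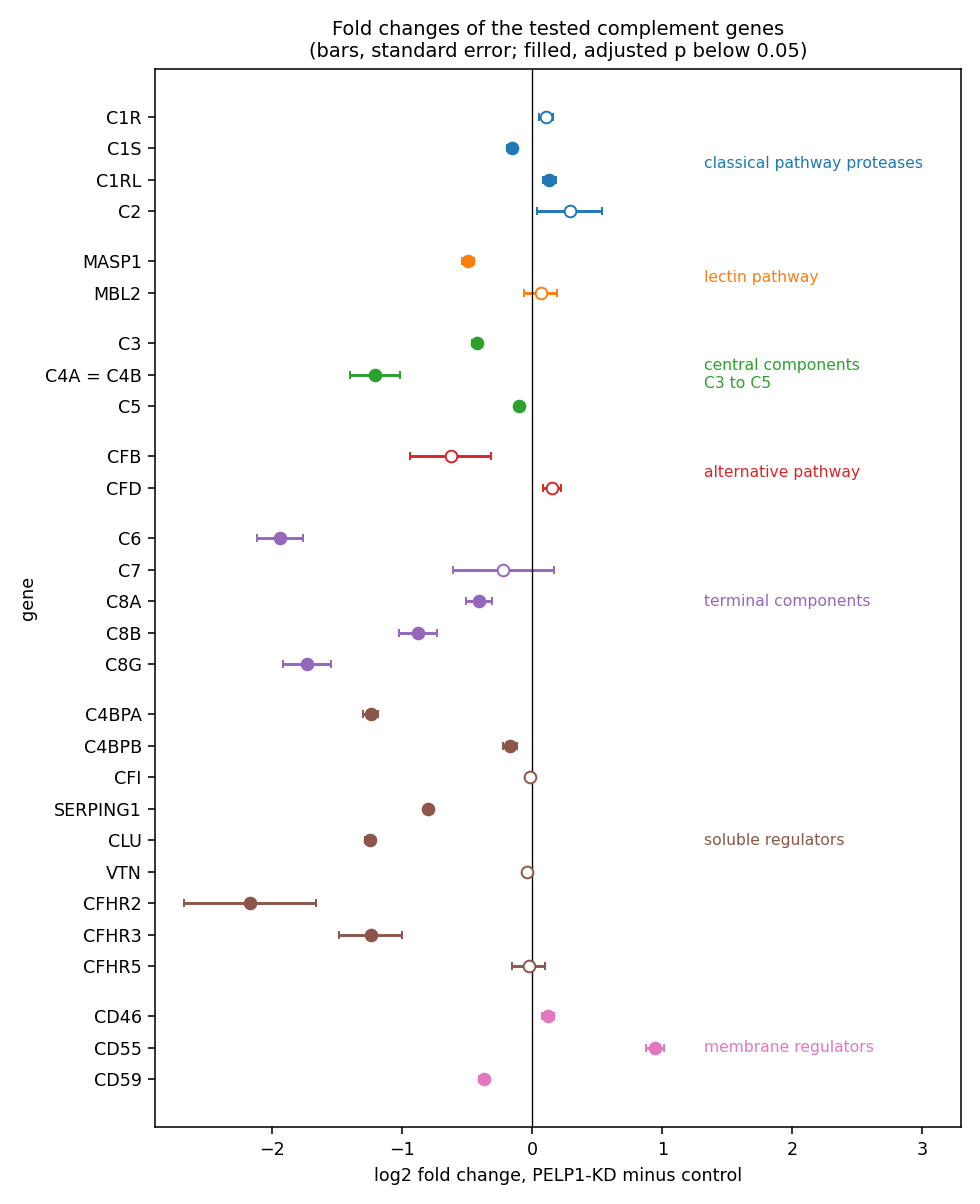
Log2 fold change of each tested complement gene in the libraries labelled PELP1-KD against control, from edgeR, with bars of 1 SE, grouped and coloured by role. Filled points have an adjusted p below 0.05. C6, C8G and CFHR2 lie farthest to the left and CD55 farthest to the right at 0.94, while VTN, CFI and CFHR5 lie next to 0. C4A and C4B are drawn once.

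Of the 9 tested soluble regulators 6 fell and 3 were not called, beside 26.8% lower among all genes tested. At least 2-fold falls were seen in 4, beside 4.79% of all genes, and the 6 and the 4 include CFHR2, which could only enter as a lower gene. CLU, a secreted chaperone that keeps the terminal complex from inserting into membranes, had 25931, 26263 and 27094 normalized reads in control, against 10647, 10902 and 11738 in the libraries labelled PELP1-KD. It fell to 42.0% of control, with a log2 fold change of −1.25 (SE 0.04), and had the smallest adjusted p of all complement genes (3.66e-16). SERPING1, the serpin that inactivates C1r, C1s and the MASPs, lies on chromosome 11 from 57365027 to 57382326. It had 9148, 9258 and 9602 normalized reads in control, against 5285, 5241 and 5568 in the libraries labelled PELP1-KD. This was 57.5% of control, with a log2 fold change of −0.80 (SE 0.04, adjusted p = 4.59e-13), and larger than the fall of its substrate C1S. For CLU and SERPING1 alike the gap between the groups was many times the spread within them.

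VTN and CFI were not called. VTN had 59342, 58953 and 60882 normalized reads in control, against 55818, 58101 and 60284 in the libraries labelled PELP1-KD, which overlap (log2 fold change −0.04, SE 0.03, adjusted p = 0.277). A call as lower appeared with the replicate number as a block (adjusted p = 0.0484) and without replicate 3 of PELP1-KD, at −0.07 (adjusted p = 0.0176). CFI, the protease that cuts C3b and C4b with the help of cofactors, had 7490, 7635 and 7369 normalized reads in control, against 7442, 7349 and 7417 in the libraries labelled PELP1-KD. Its log2 fold change of −0.02 (SE 0.03, adjusted p = 0.666) was the smallest of the tested genes.

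The factor H-related genes encode plasma proteins that compete with factor H on surfaces, and they lie in a row on chromosome 1 between 196743930 and 196978803. They are close copies of each other, so reads may be shared among them and their values are less certain. CFHR3 had 64.2, 92.0 and 49.6 normalized reads in control, against 32.8, 23.3 and 30.0 in the libraries labelled PELP1-KD, without overlap. Its log2 fold change was −1.24 (SE 0.24, adjusted p = 0.000233). CFHR2 had 22, 12 and 13 reads in control, against 5, 2 and 2 in the libraries labelled PELP1-KD (−2.17, SE 0.51, adjusted p = 0.00124). CFHR4, with 9, 10 and 8 reads in control, against 1, 2 and 7 in the libraries labelled PELP1-KD, did not pass the filter. CFHR5, at the end of the row, had 136 ± 19.7 and 134 ± 7.15 normalized reads (SD, n = 3 each) and was not called, at a log2 fold change of −0.03 (SE 0.13, adjusted p = 0.868).

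Chromosome 1 also holds the cluster of complement regulators in which C4BPB, C4BPA, CD55 and CD46 lie in this order between 207262212 and 207968861. Its members went both ways. C4b-binding protein is a plasma cofactor for factor I that is made of several α chains, from C4BPA, and a β chain, from C4BPB. C4BPA had 1513, 1386 and 1329 normalized reads in control, against 596, 590 and 598 in the libraries labelled PELP1-KD. It fell to 42.2% of control, with a log2 fold change of −1.24 (SE 0.06, adjusted p = 7.21e-13), with a wide gap between the groups. C4BPB, directly upstream of it, had 920, 958 and 954 normalized reads and then 846, 833 and 836, a log2 fold change of only −0.17 (SE 0.05, adjusted p = 0.0105). The log2 ratio of C4BPA to C4BPB was 0.48 to 0.72 in control and −0.50 to −0.48 in the libraries labelled PELP1-KD. It differed by −1.07 between the group means (exact permutation p = 0.1, adjusted over the 9 pairs 0.15). In reads, the α chain RNA thus went from above the β chain RNA to below it. Scaled by exon length, it lay below in both groups. C4BPA and C4BPB had 19.98 ± 1.33 and 25.1 ± 0.55 RPKM in control (SD, n = 3 each). They had 8.44 ± 0.06 and 22.3 ± 0.17 RPKM in the libraries labelled PELP1-KD (SD, n = 3 each).

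CD55, the decay-accelerating factor that takes C3 convertases apart on the cell surface, rose in the same cluster. It had 438, 387 and 389 normalized reads in control, against 819, 779 and 741 in the libraries labelled PELP1-KD. This was 193% of control, with a log2 fold change of 0.94 (SE 0.07, adjusted p = 9.04e-10), with no library of one group near the other. CD46, the membrane cofactor protein, was far more abundant. It had 5028, 5047 and 4786 normalized reads in control, against 5698, 5555 and 4950 in the libraries labelled PELP1-KD. The groups overlapped, and its log2 fold change of 0.12 (SE 0.05, adjusted p = 0.0299) lost its call in 5 of the 6 fits with a library removed (largest adjusted p 0.141). The log2 ratio of CD46 to CD55 was 3.52 to 3.70 in control and 2.74 to 2.83 in the libraries labelled PELP1-KD, a difference of −0.82 (exact permutation p = 0.1, adjusted over the 9 pairs 0.15). The third membrane regulator is CD59, which blocks the last step of pore assembly, and it moved against CD55. CD59, on chromosome 11 from 33724556 to 33758025, had 5070, 5078 and 5041 normalized reads in control, against 4055, 3888 and 3808 in the libraries labelled PELP1-KD. It fell to 77.4% of control, with a log2 fold change of −0.37 (SE 0.04, adjusted p = 8.51e-08).

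**Figure D3:**
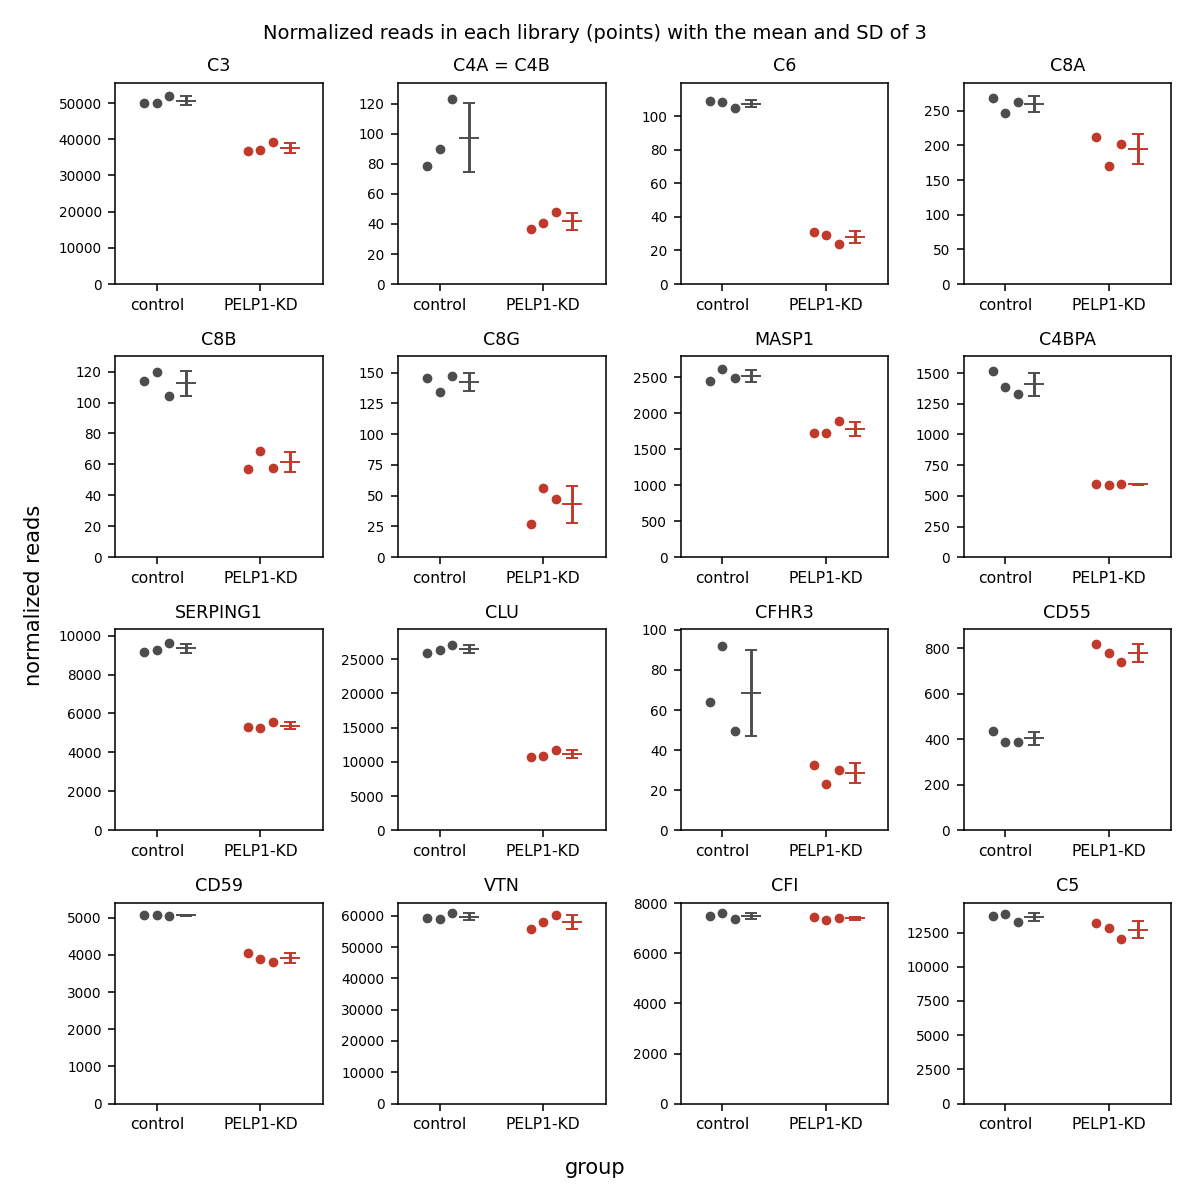
Normalized reads of complement genes in 16 panels (C4A and C4B share one), in each of the 3 control libraries (grey) and the 3 libraries labelled PELP1-KD (red), with the mean and SD beside the points and every axis starting at 0. CD55 is higher in every library labelled PELP1-KD, while CLU, C4BPA, C6 and C8G are far lower there and VTN and CFI overlap.

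The stretches before the starts of C4BPA and CD55 are shown because these genes of the same cluster moved most in opposite directions. They are the 250 bases upstream of the RefSeq transcript start, on the plus strand of GRCh38.p14, at chr1:207103983-207104232 for C4BPA and chr1:207321428-207321677 for CD55, with CG dinucleotides in capitals.
C4BPA: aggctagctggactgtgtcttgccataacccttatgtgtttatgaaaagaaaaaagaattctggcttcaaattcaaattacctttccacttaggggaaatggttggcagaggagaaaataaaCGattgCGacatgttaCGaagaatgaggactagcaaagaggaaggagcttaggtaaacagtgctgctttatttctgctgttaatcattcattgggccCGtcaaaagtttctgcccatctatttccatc
CD55: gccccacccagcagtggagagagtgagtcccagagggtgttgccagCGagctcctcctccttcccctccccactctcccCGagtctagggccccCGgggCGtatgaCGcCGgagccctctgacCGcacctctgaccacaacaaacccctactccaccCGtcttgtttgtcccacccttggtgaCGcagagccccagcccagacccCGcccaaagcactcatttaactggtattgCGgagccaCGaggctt
The C4BPA stretch held 4 CG dinucleotides and 40.4% G and C, and the CD55 stretch 12 and 64.0%.

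Promoter windows of 300 bases, from 250 before to 50 after a transcript start, were matched for 22 of the 33 genes, with 34 windows in all since some genes have several starts. There was no entry for C1S, C3, C4A, C4B, C8G, CFHR2, CFHR3, CFHR4, CFHR5, CLU and SERPING1. The complement windows had a median of 5 CG dinucleotides, beside 14 over all 35116 windows. Windows of C2, C5, CD46, CD55 and CD59 had more than that median, up to 40 for C2, and these 5 genes included 2 that rose, 2 that fell and 1 that was not called. TTGCNNAA, letters of a C/EBP site, searched on both strands like the other motifs, was in 8 of the 34 complement windows, of 6 genes, and in 10.5% of all windows. TTCNNNGAA, the core of sites for STAT proteins, was in 11 of the 34, of 9 genes, and in 7.66% of all windows. GAAANNGAA, from the core of the interferon response element, was in 5 of the 34, of the genes C4BPB, C8A, CFB and CFP, and in 8.11% of all windows. Genes with several starts had several chances of a match, the TTCNNNGAA and TTGCNNAA letters may overlap, and a match is not a bound site. Some windows of C4BPB and of CD59 overlap each other, so a match there can be counted more than once. The complement windows had a median of 53.5% G and C, beside 58.7% over all windows. The part of this difference in the motif counts was not tested.

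**Figure D4:**
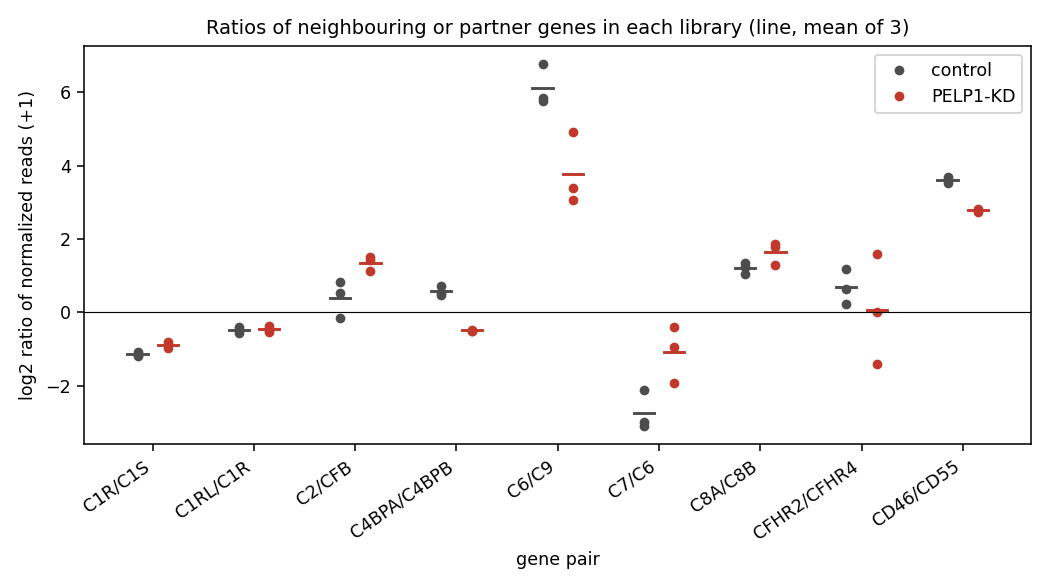
Log2 ratio of normalized reads, with 1 added to each, for 9 pairs of complement genes that lie near each other or are partners. Each control library is grey and each library labelled PELP1-KD red, with the mean as a line. The ratios of C4BPA to C4BPB and of CD46 to CD55 are lower in every library labelled PELP1-KD, whereas that of C1RL to C1R overlaps. Ratios with C9 or CFHR4 rest on a few reads.

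The remaining genes of the complement system, its receptors, lectins and cell surface partners, were mostly silent. Of 28 such genes, 27 were found by these symbols, 17 had a read and 7 passed the filter, of which 5 fell by edgeR and 4 by DESeq2, beside 26.8% lower among all genes tested by edgeR. None rose, with 0 of the 7 higher by either tool and 0 at an unadjusted p below 0.05 in edgeR. Among all genes tested by edgeR, 26.8% were called higher. The genes of this list named here were chosen after their values were seen. The carboxypeptidase N subunits CPN1 and CPN2, which inactivate the anaphylatoxins C3a and C5a, had log2 fold changes of −0.46 (adjusted p = 6.37e-07) and −0.57 (adjusted p = 1.21e-08). The membrane regulator SUSD4 had 41.1 ± 6.17 and 26.4 ± 1.75 normalized reads (SD, n = 3 each) and a fold change of −0.64 on the log2 scale (adjusted p = 0.0256). C1QBP and CALR, abundant proteins that can bind C1q, changed by −0.20 each. COLEC12 and ITGAM were not called. The C5a receptor C5AR1, the C3b receptor CR1 and the ficolins FCN1, FCN2 and FCN3 either had 0 reads or did not pass the filter.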

How the data were processed

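RNA-seq of Hep3B cells was analysed for 3 control and 3 PELP1-KD libraries, grouped by their treatment labels. By the file headers, the authors deposited estimated counts per gene without normalization, made with featureCounts 1.5.0-p1 by strand on hg19 exons (minimum mapping quality 2, with reads matching several places or genes shared out as fractions). The submitters' processing notes name HISAT2, whereas the paper names TopHat2 and HTSeq. Counts were rounded to whole numbers. Of 23228 genes, 18678 had a read and 14537 passed filterByExpr. The test was edgeR 4.0.16 in R 4.3.3 (TMM, robust glmQLFit, glmQLFTest) with Benjamini-Hochberg adjustment. Standard errors (median 0.063 over genes) were derived by dividing the absolute log2 fold change by the root of the F statistic. RPKM used the exon length on 1 sequence. On simulated counts with 200 genes changed 2-fold, edgeR recovered 200 with 14 false calls among 14509 genes, and DESeq2 1.42.0 recovered 199 with 5. The changed genes were drawn only from genes with many reads, all genes had the same dispersion, and libraries were drawn independently. This recovery therefore does not cover genes with few reads, such as C7 and CFHR2.

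The genes and lists were chosen with earlier results of these data known. Full values are given for genes with an adjusted p below 0.05, a mean of 50 normalized reads or more in the higher group and an absolute log2 fold change of at least 0.3. Other complement genes are given with their fold change or reads, and of other lists the members changed 2-fold, at most the 3 of smallest p in each direction. Motifs were chosen, and shortened to at most 9 letters, after the data had been seen. Neighbour ratios were tested with exact permutation tests. Alternatives were DESeq2 size factors or upper-quartile scaling, DESeq2, no filter or at least 10 reads in every library, an adjusted p below 0.01, C4A and C4B summed, a pseudocount of 10 for ratios, the replicate block, and each library left out. Replicate numbers come from the titles. Over 6366 genes, same-numbered libraries deviated together, with correlations of 0.336, 0.248 and 0.666. The main fit was unpaired, and pairing by number entered only in the replicate block. Control 2 with PELP1-KD 1 had 0.417 and control 1 with PELP1-KD 2 had 0.244, so the values do not tell numbers 1 and 2 apart. Replicates differed by more than sampling noise (chi-square per degree of freedom 1.93 to 7.05). No columns of other samples were in the tables. Promoter sequences are from RefSeq, GRCh38.p14, and were not joined to hg19 coordinates.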

Additional observations from a re-analysis of the deposited data

How the results depend on the processing

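The number of complement genes called lower, 17, was between 15 and 18 under every alternative fit to all these genes, and the median log2 fold change of the tested genes between −0.43 and −0.33. With C4A and C4B counted once, 16 were lower and the median was −0.30. The number called higher, 3, was less stable, at 1 with an adjusted p below 0.01, 5 with the replicate block and 1 to 4 with a library left out (1 without replicate 1 of control), so that CD55 is the only rise under all of them. The replicate block also called PELP1 (−0.083, adjusted p = 0.0106), and besides C1R, CFD and VTN it changed no other complement call. With a library left out, PELP1 lay between −0.105 and −0.040 and was called without replicate 3 of PELP1-KD (adjusted p = 0.018). The fits without replicate 1 of control and without replicate 1 of PELP1-KD called 1 of the other complement genes higher (0 to 1 over the 6 fits), and that without replicate 2 of PELP1-KD 1 acute phase gene (0 to 1). With a library left out, signs turned only for genes that were not called, namely C7 (−0.486 to 0.17 over the 6 fits, with 0.056 without replicate 2 of PELP1-KD), CFHR5 (−0.115 to 0.087, with 0.008 without replicate 1 of PELP1-KD), MBL2 (−0.036 to 0.186) and C2 (−0.016 to 0.516, the lowest without replicate 3 of PELP1-KD). The cause was not tested. C5, CD46 and C1RL, all below 0.2 in log2 fold change, are the called genes that lost their call most often. The count of all genes called and changed 2-fold, 1112, was 742 where every library had to hold 10 reads and 1386 with no filter. Depth limits C7, C9, CFP, MASP2, CFHR2 and CFHR4, which had few reads in every library, and the haplotype copies limit C2, C4A, C4B and CFB.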

Other observations

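Related groups of secreted liver proteins moved in the same direction as the complement genes. Of 25 tested coagulation genes, 19 fell and 2 rose, with a median log2 fold change of −0.46, beside 26.8% in each direction among all genes tested. F5, a cofactor of thrombin formation, had a mean of 2277 ± 72.8 normalized reads in control and 724 ± 18.1 in the libraries labelled PELP1-KD (SD, n = 3 each). The means fell likewise for CPB2, a carboxypeptidase that also inactivates C5a, from 1066 ± 74.4 to 357 ± 23.2, and for F12 from 953 ± 61.4 to 394 ± 16.8. The antithrombin gene SERPINC1 rose by 0.55 on the log2 scale (adjusted p = 9.23e-06 from edgeR). Of 20 tested acute phase genes, 15 fell and 0 rose by edgeR, beside 26.8% in each direction among all genes tested. In edgeR 0 were also higher at an unadjusted p below 0.05, and 0 were called higher with DESeq2. The list did not separate genes by their direction in an acute phase response, so the count does not measure that response. ALB, TTR, TF, RBP4 and AHSG fell, and so did SAA1 and HP. AHSG had a log2 fold change of −3.03, A2M of −3.02 and SAA1 of −1.07. Whether these groups differ from the complement genes was not tested.

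A list of genes of the pathways that control complement transcription, which includes the feedback inhibitor SOCS3, held more rises than falls. Of 22 tested, 13 rose and 5 fell, with a median of 0.16, beside 26.8% in each direction among all genes tested. IRF1, a transcription factor induced by interferon, rose to 246% of control, by 1.30 on the log2 scale (adjusted p = 9.34e-15 from edgeR). The receptor IL6R rose by 0.69, and CEBPB by 0.58. SERPINC1, IL6R and CEBPB were chosen after their values were seen. No relation between these genes and the complement genes was tested.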
